A study of Mus musculus with 17 samples.

Results

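The 40 genes described here carry a cell through division: they start the G1 phase, copy the DNA and run mitosis. They were chosen by gene symbol, and all 40 were present among the 42794 gene lines of a mouse kidney RNA-seq table. By role, 17 act in G1 and S phase (4 G1 cyclins and E2F1, 6 MCM helicase subunits, 5 genes of DNA synthesis and nucleotide supply, 2 of chromatin copying). The other 23 act in mitosis (8 mitotic cyclins and kinases, 5 of the spindle checkpoint and its ligase, 8 of the spindle, kinetochore and cytokinesis, 2 of the mitotic chromosome). The transcription factor Foxm1 is counted with the mitotic cyclins and kinases.

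Gene expression was measured in whole kidney of 17 mouse libraries in 3 groups. The control group (4 libraries) carries the genotype label WT and titles beginning NC. The Ctr shRNA group (6 libraries) carries the genotype label Ctr shRNA and titles that name both DKD and a vehicle, so it is unclear from the labels whether a control hairpin or a vehicle was given. The Gcgr shRNA group (7 libraries) carries the genotype label Gcgr shRNA and titles that name DKD and shRNA. The design text of the series describes the hairpin as a knockdown of the glucagon receptor gene in proximal tubule cells. The series concerns diabetic kidney disease, and the route by which disease was induced and the hairpin delivered is not given in the sources used here, nor are strain, age, sex or time. Both shRNA groups thus differ from control in disease label as well as in treatment. No label ties a library to an animal, and the p-values therefore reflect library-to-library spread, part of which may be technical. The targeted transcript goes against its label: Gcgr stood at 20.8 ± 2.42 FPKM (SD, n = 4) in control, 9.74 ± 2.14 (n = 6) in Ctr shRNA and 13.02 ± 1.70 (n = 7) in the libraries labelled Gcgr shRNA. FPKM is the number of fragments per kilobase of gene length, scaled to library size. Libraries held 13997657 to 17107876 recovered reads, and Ctr shRNA 20 stood apart with transcripts of fat (6 adipocyte markers summed to 682 FPKM, at most 46.5 elsewhere) and of urothelium (189, at most 10.7 elsewhere).

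Most cells of an adult kidney rest outside the cycle, and tubule cells re-enter it after injury. Cyclin D1 and cyclin E carry a cell through G1, and the freed transcription factor E2F1 turns on the genes of DNA copying, whose helicase is the ring of MCM proteins. Mitotic genes come on later, under the factors B-MYB and FOXM1 bound with the MuvB complex, and cyclin B with CDK1 then drives entry into mitosis until CDC20 directs the anaphase-promoting complex to destroy it. In resting cells, and after p53 raises the CDK inhibitor p21 (Cdkn1a), the same promoters are held down by the DREAM complex. In whole tissue, fewer cells of a type and less RNA per cell cannot be told apart.

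The G1 and S phase members were the more abundant. The medians over the 17 libraries were highest for Ccnd1 (cyclin D1), at 27.9 FPKM, and Pcna (the sliding clamp of the replication fork), at 14.6 FPKM. Mcm7 followed at 5.01, and the other 37 members had lower medians. The MCM sum averaged 16.7 ± 1.26 FPKM in control (SD, n = 4), against 7.84 ± 1.65 for all 23 mitotic members together. Bub1, a spindle checkpoint kinase, was the sparsest, with 1 to 51 reads per library.

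Libraries Gcgr shRNA 29 and Gcgr shRNA 31 stood apart from the other 15 in the mitotic members. All 23 mitotic members were highest in Gcgr shRNA 29, where 5.33% of the 19763 genes with a mean FPKM of at least 0.1 were highest. For 17 of the 23, Gcgr shRNA 31 was also second, an order seen in 0.86% of those genes. The ratio to the median of the other 15 libraries ran from 2.10 to 20.9 (median 7.16) in Gcgr shRNA 29 and from 1.21 to 6.22 (median 3.53) in Gcgr shRNA 31. These libraries were singled out after their values were seen, so the ratios are a description with no test, and they are set beside each result below.

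Mki67, the coat of the mitotic chromosome and a standard marker of cycling cells, stood at 0.21, 0.14, 0.367 and 0.26 FPKM in control libraries 37, 38, 39 and 41. In Ctr shRNA it ranged from 0.27 to 0.733 with a median of 0.501. In the libraries labelled Gcgr shRNA it read 0.375, 0.319, 0.295, 0.31 and 0.479 in libraries 13, 15, 32, 34 and 35, but 3.95 in library 29 and 1.63 in library 31. These 5 libraries lay within the range of Ctr shRNA, and libraries 29 and 31 lay above every other library. In reads, Mki67 had 581 in Gcgr shRNA 29 and 267 in Gcgr shRNA 31, against a median of 55 in the other 5.

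Cdc20, the activator of the anaphase-promoting complex, stood at 0.566, 0.548, 1.06 and 0.3 FPKM in control. Its Ctr shRNA values ran from 1.38 to 2.61 with a median of 1.74, all above every control library. The libraries labelled Gcgr shRNA ran from 0.843 to 15.5 with a median of 1.72, and the top values were 15.5 in library 29 and 5.81 in library 31. Top2a, the topoisomerase that untangles sister chromosomes, reached 2.97 and 1.59 FPKM in those libraries. Its median was 0.123 in control and 0.391 in Ctr shRNA, and the other 5 Gcgr shRNA libraries spanned 0.151 to 0.565. Cdk1, the kinase of mitotic entry, was at 0.0858, 0.0778, 0.227 and 0.114 in control, from 0.302 to 0.688 in Ctr shRNA and from 0.188 to 3.13 in Gcgr shRNA. Library 29 held the 3.13 and library 31 held 0.845, with the other 5 at or below 0.414.

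**Figure D1:**
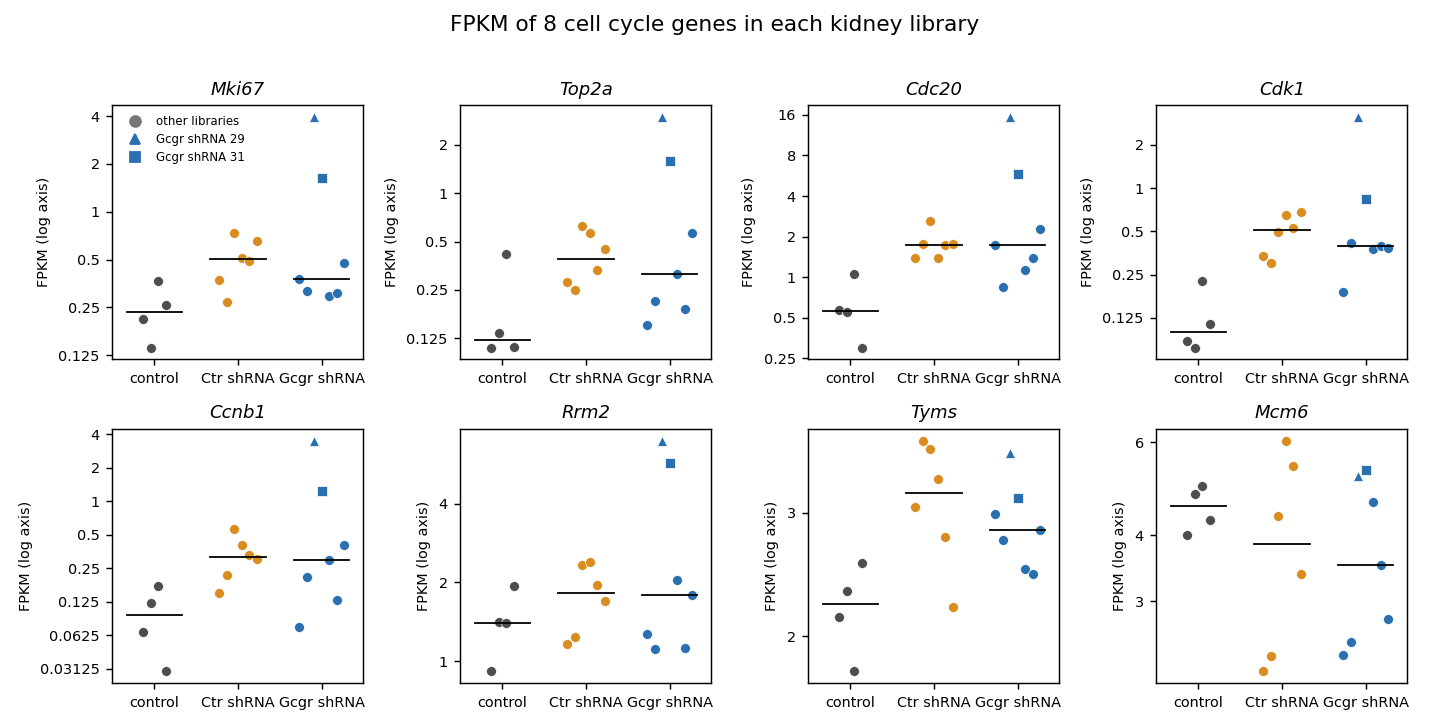
FPKM of 8 members in each library on a log axis, by group, with the group median as a line; triangles are Gcgr shRNA 29 and squares Gcgr shRNA 31. The triangle and square lie above all other points for Mki67, Top2a, Cdc20, Cdk1, Ccnb1 and Rrm2, and within the range of the others for Tyms and Mcm6.

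Library 31 was second to library 29 for 7 of the 8 cyclins and kinases, 4 of the 5 checkpoint and ligase members, 4 of the 8 spindle, kinetochore and cytokinesis members and both members of the mitotic chromosome. The 8 cyclins and kinases, Foxm1 included, were all highest in Gcgr shRNA 29, by a median ratio of 7.31. Ccnb1 (cyclin B1) was at 16.8 times the median of the other 15. The 5 checkpoint and ligase members had a median ratio of 11.2, led by Ube2c, the ubiquitin-conjugating enzyme of the anaphase-promoting complex, at 16.96. Among the 8 spindle, kinetochore and cytokinesis members the ratios ran from 2.10 for Kif23, a motor of cytokinesis, to 20.9 for Cenpf, a kinetochore protein. Kif23 was also the least separated of the 23 mitotic members in Gcgr shRNA 31, at 1.21.

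The G1 and S phase members were less separated. Of these 17, 3 were highest in Gcgr shRNA 29 and 5 in Gcgr shRNA 31, where 5.33% and 8.87% of the 19763 genes were highest. The median ratios were 1.36 and 1.49. Rrm2, the S-phase subunit of ribonucleotide reductase, was at 6.94 and 5.71 FPKM in the 2 libraries and 0.917 to 2.38 in the other 15, or 4.93 and 4.06 times their median. Besides Rrm2, 3 members were over 2 times the median of the other 15 in both libraries. These were Mcm5 (3.32 and 2.43 times) and the chromatin copying members Hells (2.65 and 2.74), a DNA helicase of chromatin, and Uhrf1 (2.40 and 2.08), which guides maintenance of DNA methylation. Among the other helicase subunits Mcm3 reached 1.93 and 2.29 times, while Mcm2, Mcm4, Mcm6 and Mcm7 lay between 1.18 and 1.44 in both libraries. High values of these members were also seen in Ctr shRNA 8. Uhrf1 (2.06 FPKM, against 1.43 and 1.24) and Mcm3 (2.45, against 1.77 and 2.09) were higher there than in libraries 29 and 31. Mcm5 lay between them (3.22, against 3.44 and 2.52), and Hells just below both (0.470, against 0.494 and 0.511).

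**Figure D2:**
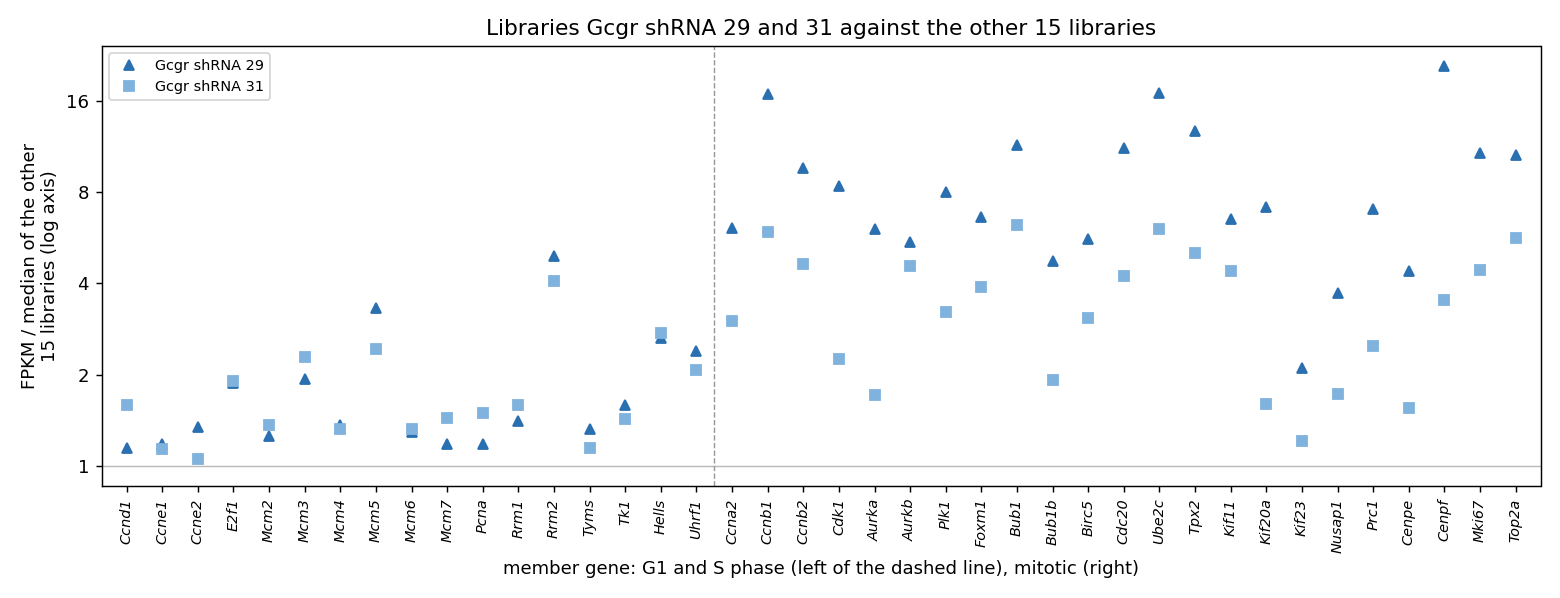
FPKM in Gcgr shRNA 29 (triangles) and Gcgr shRNA 31 (squares) divided by the median of the other 15 libraries, on a log axis, for each member; G1 and S phase members lie left of the dashed line. Triangles of the mitotic members run from 2.10 to 20.9, and those of the G1 and S phase members from 1.15 to 4.93.

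Lists of genes outside the 40, chosen with earlier results of these data known, showed a like division by role. Of 49 further mitotic genes, 43 had a mean FPKM of at least 0.1 over all 17 libraries. That mean includes libraries 29 and 31, so a low gene could pass the filter through them. Of these 43, 34 were highest in Gcgr shRNA 29 and 28 had Gcgr shRNA 31 second, with median ratios of 4.70 and 2.98. The counts are a description with no test. Of 29 replication fork genes 5 were highest in library 29, and of 20 origin licensing genes 3. Over all 19763 genes with that mean FPKM, 5.33% were highest in library 29, and 0.86% also had library 31 second. Cell type markers in the 2 libraries did not rise as 1 pattern. The summed tubular injury markers (10 genes) were highest in Gcgr shRNA 29, at 1550 FPKM, but library 31 ranked 7 of 17. Another library labelled Gcgr shRNA reached 1538, and a Ctr shRNA library 1520. The injury gene Havcr1 stood at 32.4 FPKM in library 29 and 7.96 in library 31. The highest Havcr1 value in Ctr shRNA, in library 8, was 32.3. Havcr1 was singled out after its values were seen. Macrophage markers (10 genes) summed to 355 and 447 FPKM, ranks 8 and 2. B and plasma cell markers (7 genes, 2 with a mean FPKM of at least 1) summed to 6.07 and 17.6, ranks 16 and 1. Neutrophil markers (8 genes, 2 with that mean) summed to 7.67 and 18.5, ranks 6 and 2. T and natural killer cell markers (11 genes, 3 with that mean) ranked 10 and 5. Erythroid markers (7 genes) ranked 15 and 16, so the summed level of red cell transcripts was among the lowest in both libraries. Proximal tubule markers ranked 13 and 8, and thick ascending limb markers 3 and 9. Those of the distal convoluted tubule ranked 8 and 1, and those of the collecting duct 11 and 4. Adipocyte markers (6 genes) summed to 46.5 FPKM in library 29, second to Ctr shRNA 20, and 9.26 in library 31. No marker gene of these lists was at 0 in every library. The part of these cells and of tubular injury in the mitotic levels was not tested.

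Promoters are shown because all 23 mitotic members were highest in Gcgr shRNA 29. Whether these members vary together across the other libraries was not tested. RefSeq (GRCm38.p6) promoters were found for 32 of the 40 members, with no entry for Ccnd1, Ccne2, Mcm4, Ccna2, Aurkb, Foxm1, Tpx2 and Kif20a. The 250 bases before each start were searched on both strands for CCAAT, bound by NF-Y, for the cell cycle homology region (CHR) as TTTGAA or TTCGAA, the element read by DREAM and MuvB, and for an E2F site as TTTCCCGC, TTTCGCGC, TTTGCCGC or TTTGGCGC. CCAAT was in 17 of 19 promoters of the mitotic members (89.5%), and in 33.8% of all 32851 promoters. A CHR was in 9 of the 19 (47.4%, against 17.1% of all), and an E2F site in 1 (5.26%, against 1.86% of all). Among 16 promoters of the G1 and S phase members the order differed: an E2F site was in 5 (31.2%), a CHR in 2 (12.5%) and CCAAT in 11 (68.8%). These are letters in a window with no test, and a match is not a binding site.

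The 150 bases before the RefSeq start of 8 members follow, 5′ to 3′ on the strand of the gene, with every match to the 3 motifs in capitals on either strand (CCAAT also reads ATTGG, and a CHR also reads TTCAAA). The first 5 are mitotic members that were highest in libraries 29 and 31, Mcm6 and Mcm5 are helicase members with an E2F site, and Tyms is the member that passed a test below.
Top2a (chr11:99024190-99024339, minus strand): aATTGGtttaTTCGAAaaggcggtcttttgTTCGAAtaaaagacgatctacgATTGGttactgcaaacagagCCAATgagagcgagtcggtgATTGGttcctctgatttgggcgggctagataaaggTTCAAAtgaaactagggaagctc
Mki67 (chr7:135716380-135716529, minus strand): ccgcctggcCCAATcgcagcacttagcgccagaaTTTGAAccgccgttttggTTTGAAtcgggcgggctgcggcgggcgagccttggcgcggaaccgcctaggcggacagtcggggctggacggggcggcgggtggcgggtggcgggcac
Cdk1 (chr10:69352913-69353062, minus strand): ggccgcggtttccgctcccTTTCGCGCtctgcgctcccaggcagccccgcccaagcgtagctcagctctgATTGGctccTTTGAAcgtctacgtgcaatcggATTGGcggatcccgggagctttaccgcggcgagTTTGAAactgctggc
Ccnb2 (chr9:70421555-70421704, minus strand): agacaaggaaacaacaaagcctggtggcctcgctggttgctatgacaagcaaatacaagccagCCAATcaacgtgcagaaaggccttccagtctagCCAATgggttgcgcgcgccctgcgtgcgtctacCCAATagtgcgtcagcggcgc
Cdc20 (chr4:118437344-118437493, minus strand): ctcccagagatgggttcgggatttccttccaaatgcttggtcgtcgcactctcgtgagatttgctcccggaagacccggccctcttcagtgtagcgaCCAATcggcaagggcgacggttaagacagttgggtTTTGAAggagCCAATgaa
Mcm6 (chr1:128359706-128359855, minus strand): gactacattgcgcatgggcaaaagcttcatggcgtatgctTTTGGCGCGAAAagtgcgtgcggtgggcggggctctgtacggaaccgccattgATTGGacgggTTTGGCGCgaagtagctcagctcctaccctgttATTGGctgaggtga
Mcm5 (chr8:75109359-75109508, plus strand): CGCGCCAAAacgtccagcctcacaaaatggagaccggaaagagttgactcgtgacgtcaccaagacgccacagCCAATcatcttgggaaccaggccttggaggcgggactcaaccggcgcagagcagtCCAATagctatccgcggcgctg
Tyms (chr5:30073626-30073775, minus strand): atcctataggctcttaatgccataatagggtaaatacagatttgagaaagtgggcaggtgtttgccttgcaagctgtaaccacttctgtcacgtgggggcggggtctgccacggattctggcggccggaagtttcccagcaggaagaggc
Top2a held 4 CCAAT and 3 CHR matches in this stretch, Mki67 1 and 2, Cdk1 2 and 2 with 1 E2F match, Ccnb2 3 and 0, and Cdc20 2 and 1. Mcm6 held 2 CCAAT and 3 E2F matches, of which a pair overlap in the first run of capitals. Mcm5 held 2 CCAAT and 1 E2F match, and a further E2F match overlaps the left edge of the stretch. The Tyms stretch held none of the 3 motifs.

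The first comparison, Ctr shRNA against control, sets libraries with DKD titles beside those labelled WT, and the groups differ in treatment as well. No member passed limma-trend on log2(FPKM + 1) at an adjusted p of 0.05 (Benjamini-Hochberg over all 13279 genes tested): 0 of the 20 members with FPKM of at least 1 in 4 libraries, where 7.49% of all genes were called. At an unadjusted p under 0.05 there were 5 of the 20 (Ccnd1, E2f1, Pcna, Rrm1 and Tyms), all higher, where 23.4% of all genes passed in either direction and 11.6% were higher. The low members, among them 15 of the 23 mitotic ones, could enter only a second fit, limma voom on reads recovered from the FPKM, which tested 39 members (all but Bub1). It called 1, Tyms, where 6.81% of 15450 genes were called, and 7 of the 39 members had an unadjusted p under 0.05, all higher, where 21.9% of all genes did in either direction and 12% were higher.

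Tyms, the thymidylate synthase that makes the DNA building block dTMP, read 2.13, 2.32, 1.78 and 2.55 FPKM in control and ranged from 2.2 to 3.79 with a median of 3.2 in Ctr shRNA. The groups overlapped in 1 library, Ctr shRNA 20, at 2.2, and all others of that group lay above every control. The log2 difference was 0.52 ± 0.15 (SE) in limma voom with an adjusted p of 0.0475, and 0.37 ± 0.11 in limma-trend with an adjusted p of 0.0545. The gene lies at chr5:30058202-30073617 on the minus strand. Leaving out single libraries moved both calls, and their range is given in the closing section.

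Fitted differences leaned upward without passing the test in most members. In limma voom 34 of 39 members were above 0, and the median log2 difference was 0.53, beside 0.03 over all genes tested. The median was 0.95 for the 22 mitotic members tested and 0.21 for the 17 of G1 and S phase. E2f1, the transcription factor of S-phase genes, read 1.54, 1.42, 1.29 and 1.46 FPKM in control and ran from 1.67 to 2.67 in Ctr shRNA with a median of 2.21, with no overlap. Its log2 difference was 0.37 ± 0.15 in limma-trend (adjusted p = 0.141). Cdk1 differed by 2.02 ± 0.76 in limma voom (adjusted p = 0.122) on 6 to 17 reads per control library. Birc5 (survivin, of the chromosomal passenger complex) differed by 1.49 ± 0.64 in limma voom (adjusted p = 0.178). Cdc20 differed by 0.78 ± 0.45 in limma-trend (adjusted p = 0.305) and by 1.63 ± 0.85 in limma voom (adjusted p = 0.277).

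Without overlap between groups, 6 of the 40 members were higher in every Ctr shRNA library than in every control (E2f1, Cdk1, Aurkb, Birc5, Cdc20 and Cenpf), where 3.78% of the 19763 genes were. None was lower, where 4.24% were. Without Ctr shRNA 20 there were 7, Tyms being added, beside 5.41% of genes. For the lowest of them the gap was narrow. Cenpf had at most 10 reads in a control library and at least 11 in a Ctr shRNA library, and Aurkb 11 and 12.

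The spread of Gcgr shRNA 29 and 31 entered these tests because all 3 groups share 1 estimate of the spread. Without those 2 libraries the estimated differences between Ctr shRNA and control were nearly the same, and their errors were smaller. Limma-trend then called 3 members, all higher in Ctr shRNA: Cdc20 (0.78 ± 0.17, adjusted p = 0.0122), E2f1 (0.37 ± 0.10, adjusted p = 0.0299) and Tyms (0.37 ± 0.11, adjusted p = 0.0484). Limma voom called 5, namely those 3 with Cdk1 (2.02 ± 0.41, adjusted p = 0.00883) and Birc5 (1.49 ± 0.41, adjusted p = 0.0389). The shares of all genes called were 7.71% and 7.15% in these fits. Mki67 had a log2 difference of 1.07 ± 0.34 and an adjusted p of 0.0668. This set of libraries was chosen after their values were seen.

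**Figure D3:**
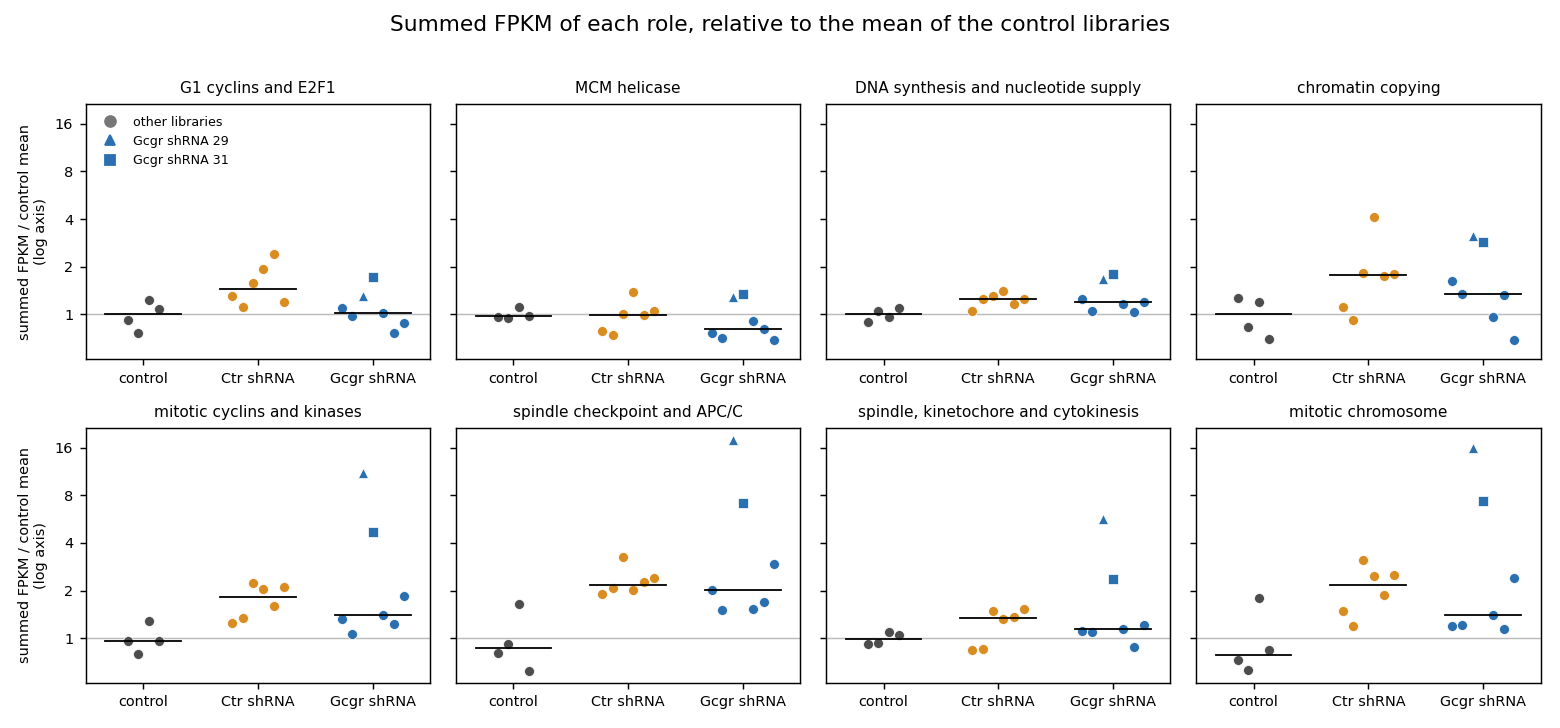
Summed FPKM of the members of each role in each library, divided by the mean of the 4 control libraries, on a log axis; lines are group medians, triangles Gcgr shRNA 29 and squares Gcgr shRNA 31. The mitotic sums of those libraries stand above all others in the 4 lower panels, while the MCM sums of the other 5 Gcgr shRNA libraries lie below 1 and those of libraries 29 and 31 at 1.29 and 1.35.

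The summed mitotic members averaged 7.84 ± 1.65 FPKM in control (6.77 to 10.3) and 13.3 ± 2.97 in Ctr shRNA (9.71 to 17.3), a ratio of means of 1.69. Without Ctr shRNA 20 the Ctr shRNA sum was 12.8 ± 3.10. By role, the ratio of means was 2.33 for the checkpoint and ligase members, 2.11 for the mitotic chromosome, 1.76 for cyclins and kinases and 1.24 for the spindle members. The MCM sum was 16.7 ± 1.26 in control and 16.6 ± 3.80 in Ctr shRNA. Ccnd1 averaged 25.4 ± 5.73 FPKM in control and 40.97 ± 13.9 in Ctr shRNA, a log2 difference of 0.63 ± 0.24 in limma-trend (adjusted p = 0.11).

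The second comparison sets the libraries labelled Gcgr shRNA against Ctr shRNA, both with DKD titles. No member passed either test, 0 of 20 in limma-trend, where 0% of all genes were called, and 0 of 39 in limma voom, where 0% were called. At an unadjusted p under 0.05 the 1 member in either fit was Ccnd1, which was lower, where 7.32% and 7.06% of all genes passed in either direction and 3.22% and 3.97% were lower. It had a log2 difference of -0.53 ± 0.20 in limma-trend (adjusted p = 0.55). No member was separated without overlap, higher (0.086% of genes) or lower (0.0911%).

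The direction of the mitotic members here rested on the 2 libraries. With all libraries 21 of 22 mitotic members tested in limma voom were above 0, with a median log2 difference of 0.25. Without Gcgr shRNA 29 and 31, 19 of 22 were below 0, with a median of -0.38 beside -0.05 over all genes tested, and still none passed. Mki67 went from 0.30 ± 0.52 (adjusted p = 0.921) to -0.49 ± 0.28 (adjusted p = 0.736). Cdc20 went from 0.41 ± 0.52 to -0.36 ± 0.27 in limma voom. The summed mitotic members were 24.7 ± 27.6 FPKM over all 7 libraries labelled Gcgr shRNA and 10.8 ± 2.18 over the other 5, beside 13.3 ± 2.97 in Ctr shRNA.

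The third comparison sets the libraries labelled Gcgr shRNA against control, and shares its groups with the other 2 comparisons. Limma-trend called 0 of 20 members, where 2.02% of all genes were called, and limma voom called 0 of 39, where 1.55% were. At an unadjusted p under 0.05 there were 6 of 20 and 7 of 39 members, all higher, where 16.2% and 15% of all genes passed in either direction and 8.8% and 7.58% were higher. Among the 6 were Plk1 and Ube2c, which met the filter (FPKM of at least 1 in 4 libraries) only through Gcgr shRNA 29 and 31. Without those libraries limma-trend tested 18 members. Cdk1 had the largest fitted difference, 2.11 ± 0.75 in limma voom (adjusted p = 0.175), and 1.49 ± 0.44 (adjusted p = 0.113) without the 2 libraries. Cdc20 differed by 1.21 ± 0.43 in limma-trend (adjusted p = 0.173), and by 0.60 ± 0.17 (adjusted p = 0.107) without the 2 libraries. In limma voom with all libraries Cdc20 differed by 2.03 ± 0.82 (adjusted p = 0.241). No member was higher without overlap (2.68% of genes were), and none was lower (1.76% were).

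The helicase members changed place with the choice of libraries. Mcm7 read 5.29, 5.17, 5.5 and 5.7 FPKM in control, and 3.72, 3.8, 4.59, 4.26 and 4.39 in Gcgr shRNA 13, 15, 32, 34 and 35. Libraries 29 and 31 read 5.59 and 6.79, so the groups overlapped only through them. With all libraries the log2 difference was -0.18 ± 0.12 in limma-trend (adjusted p = 0.475). Without the 2 libraries it was -0.32 ± 0.09 in limma-trend (adjusted p = 0.0955). In limma voom the same values were -0.23 ± 0.16 (adjusted p = 0.519) and -0.41 ± 0.14 (adjusted p = 0.173). Mcm7 was then the 1 of 40 members lower without overlap, a share no larger than that of all genes (3.48%). The MCM sum over all 7 libraries was 15.6 ± 4.59 FPKM (11.55 to 22.5), against 16.7 ± 1.26 in control (15.8 to 18.5), a ratio of means of 0.934. Libraries 29 and 31 held 21.6 and 22.5, above every control library, and the other 5 (12.98 ± 1.47, 11.55 to 15.2) lay below every control library. In limma voom 5 of the 6 subunits had a fitted difference below 0 with all libraries, and all 6 without the 2. None of the 6 passed the test, and the 5 libraries were chosen after their values were seen.

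**Figure D4:**
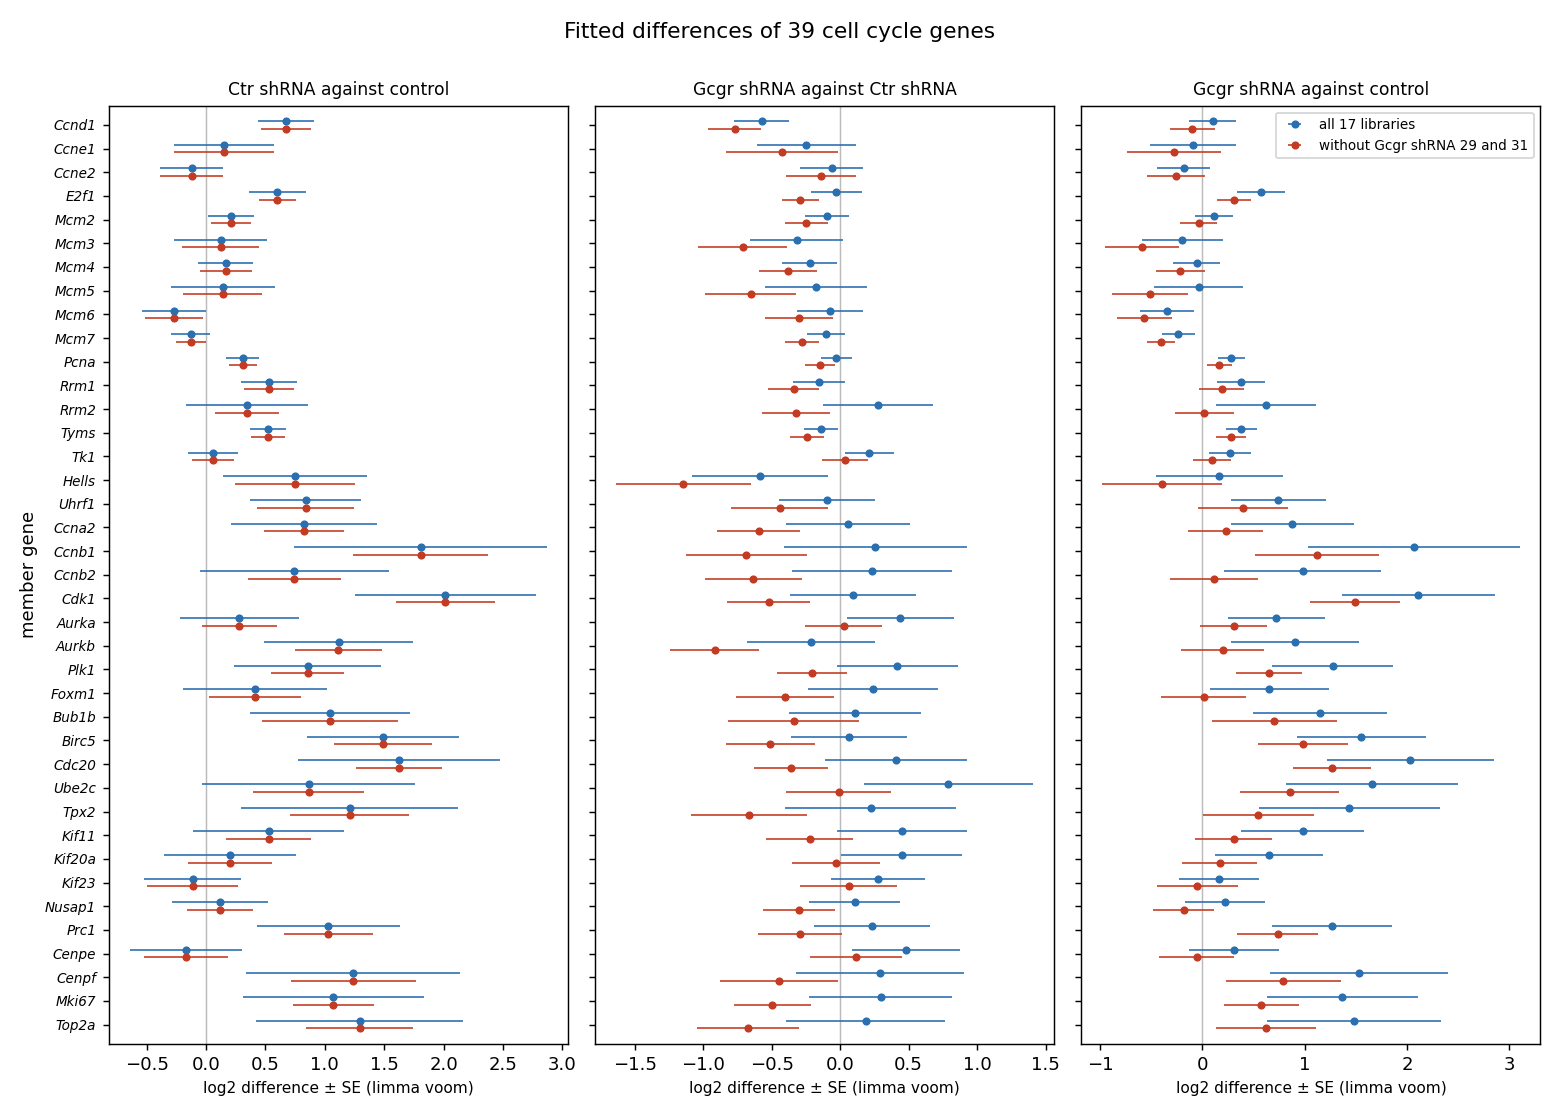
Log2 difference ± SE from limma voom for the 39 members tested, in 3 comparisons, with all 17 libraries (blue) and without Gcgr shRNA 29 and 31 (red). In the left panel the points coincide and the red bars are shorter; in the middle panel most mitotic members move from above 0 to below 0.

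Regulators of these genes were tested in the same fits. Cdkn1a (p21), which stops CDK2 and maintains DREAM, rose in both shRNA groups, from 2.29 ± 0.49 FPKM in control to 23.1 ± 4.41 in Ctr shRNA and 23.5 ± 8.26 in Gcgr shRNA. Its log2 difference in limma-trend was 2.86 ± 0.22 (adjusted p = 6.27e-07) and 2.84 ± 0.22 (adjusted p = 6.87e-07). In libraries 29 and 31, where the mitotic members were highest, Cdkn1a stood at 24.7 and 24.0 FPKM, within the range of the other 5 (13.4 to 36.7). It was the only one of 6 CDK inhibitors tested in limma-trend that passed. Against control, 7.49% of all genes were called in Ctr shRNA and 2.02% in Gcgr shRNA. Cdkn2c, an inhibitor of CDK4 and CDK6, was 11.7 and 10.3 FPKM in libraries 29 and 31 and 4.95 to 6.91 in the other 5. Cdkn2c was named after its values were seen.

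Of 16 p53-linked brakes on division tested in limma-trend, 9 rose and 0 fell in Ctr shRNA against control. There 7.49% of all genes were called. The median log2 difference of the 16 was 0.64, beside 0.01 over all genes tested. In Gcgr shRNA against control 8 rose, where 2.02% of all genes were called. Phlda3, an inhibitor of AKT, differed by 2.27 ± 0.20 in the first of these (adjusted p = 3.31e-06). Plk2, a kinase induced by p53, differed by 1.03 ± 0.14 (adjusted p = 0.000324), Zmat3 by 0.65 ± 0.09 (adjusted p = 0.000594) and Ccng1 (cyclin G1) by 0.80 ± 0.14 (adjusted p = 0.00288). Trp53 itself rose by a log2 difference of 0.44 ± 0.12 (adjusted p = 0.0314) and was the 1 of 7 genes of the DNA damage checkpoint list that passed. In Gcgr shRNA against Ctr shRNA no gene of these lists passed.

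The copying machinery outside the 40 genes was near the background. Of 21 replication fork genes tested in limma-trend none passed in any comparison, of 13 origin licensing genes none passed, and in limma voom Orc4, a subunit of the origin recognition complex, rose in Ctr shRNA against control by 0.33 ± 0.09 (adjusted p = 0.0385). No gene passed among 14 of the RB family, E2F and DREAM list or among 9 G1 kinases and other D cyclins. Cks2, the small CDK-binding subunit, was the 1 of 16 other mitotic genes that rose in Ctr shRNA against control, by 0.69 ± 0.17 (adjusted p = 0.0221). In that comparison 7.49% of all genes were called in limma-trend and 6.81% in limma voom. Cks2 was far more abundant than the mitotic members, at 27.0 ± 1.46 FPKM in control and 45.5 ± 12.4 in Ctr shRNA, and at 44.3 and 27.2 in Gcgr shRNA 29 and 31.

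Growth signals upstream of division moved in both directions in Ctr shRNA against control. In limma-trend 2 of 13 tested rose and 3 fell, where 7.49% of all genes were called. The risers were Myc (1.00 ± 0.21, adjusted p = 0.00755), which drives growth and G1 entry, and Jun (0.91 ± 0.23, adjusted p = 0.025), an early response factor. Egf, the growth factor of the thick ascending limb, fell by 1.09 on the log2 scale (adjusted p = 0.00318), and Igf1r, the insulin-like growth factor receptor, fell by 0.45 (adjusted p = 0.00252). The 6 markers of that tubule segment, Egf among them, summed to 1040 to 1424 FPKM in control and 419 to 1064 in Ctr shRNA, and their part in the fall of Egf was not tested. In the libraries labelled Gcgr shRNA against control, Jun was the 1 gene of this list that passed (1.01 ± 0.23, adjusted p = 0.0266). In that comparison 2.02% of all genes were called.

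Reads of some members could be shared with other genes, which was not tested. Ccnd1, Ccne2, Mcm7, Tk1, Ccna2, Cdc20, Kif20a, Nusap1 and Prc1 overlap another transcribed gene, and Pcna, Tyms, Ccnb1 and Ccnb2 have pseudogene copies in the table. Whether counting used strand or unique reads is not given in the sources used here.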

How the data were processed

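Gene expression was measured by RNA-seq of mouse kidney, from total RNA and a SMARTER mRNA kit per the labels' protocols, in 17 libraries. The deposited table holds FPKM values that the authors computed per gene and library, with coordinates and gene length per the file headers. Builds named in the submitters' processing notes are GRCm38 and mm10. Aligner, counter and annotation release: not given in the sources used here. An incomplete last line (1) was left out. Of the members, 39 of 40 had the same position in GENCODE M21 (GRCm38).

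FPKM times gene length gave whole multiples of 1 step per library (100% of low values within 0.05 of a step), so reads were recovered, 13997657 to 17107876 per library. Gene lists found 324 of 327 symbols. Replicate pairs differed beyond counting noise (chi-square over degrees of freedom 7.135 to 76.09), so no library was counted as a duplicate.

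The main test was limma-trend (limma 3.58.1, R 4.3.3) on log2(FPKM + 1), for genes with FPKM of at least 1 in 4 libraries, over all 3 groups. The second was limma voom on recovered reads, for genes with a mean of at least 10 reads. Both used Benjamini-Hochberg adjustment over all genes tested and a threshold of 0.05, and both were tested on simulated data. The simulation changed only genes with more reads than most mitotic members had, and no simulated library stood apart. It therefore cannot show how the fits treat those low members. A fold change on the log2(FPKM + 1) scale understates the change of low genes. Groups came from the genotype labels. The members and lists were chosen with earlier results of these data known. Named genes were all members, Gcgr, Cdkn1a and, from each companion list, up to 4 genes with the smallest p among those passing either fit, or up to 2 where none passed. Cdkn2c and Havcr1 fall outside this rule and were named after their values were seen. Alternatives tried were the pseudocount, filters, scaling, variance model, samples in the fit and left-out libraries. Figures used python 3.11.15 and matplotlib 3.10.9.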

Additional observations from a re-analysis of the deposited data

Results flagged for a closer look

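Of 120 sets of values (40 members in 3 groups), 12 had a highest or lowest library far from the others by Dixon's test at the 95% level, and chance flags about 1 in 20. Gcgr shRNA 29 gave 6 of the 12, as the highest of its group in FPKM: Cdk1 at 3.13, Aurka at 4.7, Bub1b at 1.34, Kif20a at 2.45, Prc1 at 1.19 and Cenpf at 0.962. In Gcgr shRNA 35 Mcm2 was low, at 1.31. In Ctr shRNA, Uhrf1 was high at 2.06 in library 8 and Cdc20 at 2.61 in library 6. In control, Mcm4 was high at 2.66 and Top2a at 0.416 in library 39, and Cenpf was low at 0.0166 in library 38. In 17 mitotic members Gcgr shRNA 31 was second to Gcgr shRNA 29, which narrows the gap the test looks at.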

How the results depend on the processing

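Ctr shRNA against control was the comparison in which the count of members past the threshold moved. In limma-trend the count was 0. It was 4 with sample weights (Ccnd1, E2f1, Pcna, Tyms), 1 when only the groups compared were fitted (Cdc20), 1 without Ctr shRNA 20 and Gcgr shRNA 31 together (Tyms), 3 without Gcgr shRNA 29 and 31, 3 without those and Ctr shRNA 20, and 1 in limma voom. Leaving out 1 library at a time gave 0 to 1, and the libraries whose removal added Tyms were Ctr shRNA 19, Ctr shRNA 20 and Gcgr shRNA 29. In limma voom the count was 1. It was 0 with a filter at a mean of 1 read, 0 with no filter, 0 with median-of-ratios scaling, 0 with the authors' library size, 7 with quality weights, 3 when only the groups compared were fitted (Cdc20, E2f1, Cdk1), 5 without Gcgr shRNA 29 and 31, and 5 without those and Ctr shRNA 20. Leaving out 1 library at a time gave 0 to 2, and Tyms lost its call without any 1 of the 4 control libraries, Ctr shRNA 1, 4, 6 or 8, or Gcgr shRNA 13, 15, 31 or 35. In Gcgr shRNA against control 1 member (Cdk1) passed limma voom with quality weights, and every other alternative of that comparison and of Gcgr shRNA against Ctr shRNA gave 0.

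In Gcgr shRNA against Ctr shRNA the direction reversed without Gcgr shRNA 29 and 31 for Cdc20 (-0.18 in limma-trend and -0.36 in limma voom) and Mki67 (-0.49). With Ctr shRNA 20 left out as well, the values were -0.18, -0.32 and -0.37. Leaving out 1 library at a time gave -0.011 to 0.65 for Cdc20 and -0.12 to 0.48 for Mki67 in limma voom, the lowest of each without Gcgr shRNA 29. Of 688 alternatives for single members, 636 kept direction and side of the threshold, 27 gained a call, 17 lost one and 8 reversed. The cause was not tested. Left-out sets that hold both Gcgr shRNA 29 and 31 were chosen after seeing the data. No paired analysis was possible because the groups share no replicate numbers. Depth limits the mitotic members: Bub1 had as few as 1 read in a library.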

Other observations

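Some companion genes stood out by unadjusted p without passing either fit over all genes and libraries. Ckap2, a mitotic spindle protein, averaged (mean ± SD) 0.108 ± 0.0397 FPKM over the 4 control libraries, 0.404 ± 0.208 over the 6 of Ctr shRNA and 0.918 ± 0.981 over the 7 labelled Gcgr shRNA, or 0.421 ± 0.109 over the 5 other than 29 and 31. Its log2 difference in Gcgr shRNA against control was 2.5 ± 0.80 in limma voom with all 7 (adjusted p = 0.134) and 1.87 ± 0.52 without those 2 (adjusted p = 0.092). In Ctr shRNA against control it was 1.75 ± 0.84 (adjusted p = 0.228) in limma voom, and 1.75 ± 0.51 (adjusted p = 0.0474) without those 2. Pold3, a subunit of DNA polymerase delta, had a log2 difference of -0.19 ± 0.05 in Gcgr shRNA against Ctr shRNA (limma-trend, adjusted p = 0.332). Rbl2, the pocket protein of DREAM, had one of -0.29 ± 0.10 in Ctr shRNA against control (limma-trend, adjusted p = 0.0934).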
